A study of Mus musculus with 10 samples.

Results

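The genes described here are 42 genes of the extracellular matrix of fat, read in visceral adipose tissue of tumour-bearing and sham-operated mice. They are the collagens of fibrils, of the basement membrane and of other networks, the laminins, nidogens and perlecan, fibronectin, fibrillin and elastin, and the enzymes and chaperone that hydroxylate, fold and crosslink collagen. They were taken by gene symbol from a list that was chosen with earlier results of these data known. All 42 were found among the 16667 genes with normalized counts and the 29242 genes with TPM, a share of all transcripts corrected for transcript length. All 42 passed the filter on low values, a mean of at least 10 normalized counts, as did 14203 genes in all. One group was 5 wild-type C57BL/6 mice carrying orthotopic KPC tumours, that is, tumours of a mouse model of pancreatic cancer placed in the pancreas, and the other was 5 wild-type C57BL/6 mice after sham surgery. All mice were 10 weeks old, the tissue was labelled visceral adipose tissue in both groups, and no genetic change in the hosts is given beyond wild type. By its title, the study is about the upkeep of type 2 immunity in fat that wastes during cancer.

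Fat cells, unlike most connective tissue cells, are each wrapped in a basement membrane, a thin sheet of collagen IV and laminin networks joined by nidogen and perlecan. Outside it lie beaded microfibrils of collagen VI and fibrils built mainly of collagens I, III and V. Collagen chains are hydroxylated on proline and lysine in the endoplasmic reticulum, fold into helices under the chaperone that Serpinh1 encodes, and are crosslinked outside the cell by lysyl oxidases. In expanding fat this matrix is remodelled, and collagen VI and fibrosis are known for limiting how far fat cells swell.

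None of the matrix genes passed the test over all genes, and 37 of the 42 averaged lower in KPC mice, with a median difference smaller than the spread between mice. By limma with adjustment over 14203 genes, 0 of the 42 members were called higher and 0 lower at an adjusted p under 0.05, where 0.0563% of all genes tested were called in either direction, 0.0493% higher and 0.00704% lower. At an unadjusted p under 0.05, 8 members lay lower (19.0% of 42) and 0 higher, where 5.91% of all genes tested lay lower and 7.61% higher. The difference was negative for 37 members and positive for 5, while 53.1% of all genes tested had a negative difference. Over the 42 members the median log2 difference was -0.22, a fold of 0.860, and over all genes tested it was -0.02. This median is smaller than the SD between mice of the members' median, 0.244, and without sham mouse 5 it was -0.13. That SD describes single mice, so setting a difference of group means beside it is not a test. KPC mice 1 to 5 lay below the sham mean in 27, 37, 35, 24 and 26 of the 42 members, and sham mice 1 to 5 in 33, 30, 32, 17 and 5. Sham mice 1 to 3 thus lay below that mean about as often as KPC mice, and sham mouse 5 stood above it in nearly all members. For no member did the groups separate fully, where 2.75% of all genes had every KPC mouse above every sham mouse and 1.28% had every KPC mouse below. Log2 differences are KPC minus sham on the log2(normalized count + 1) scale, given with their SE, and levels are in TPM as mean ± SD over 5 mice per group. In whole tissue, fewer cells of a type and less RNA per cell cannot be told apart.

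**Figure D1:**
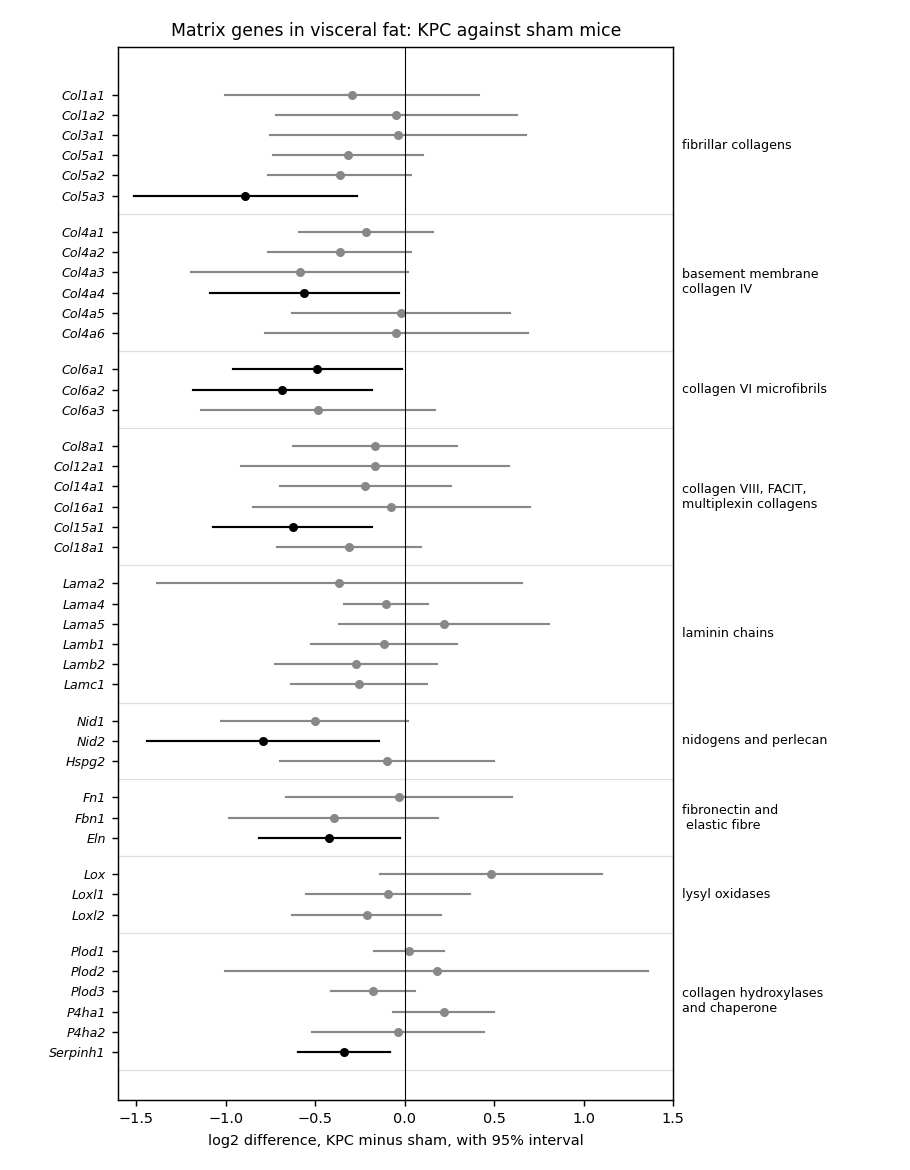
Log2 difference, KPC minus sham, of each of the 42 matrix genes, with its 95% interval from limma, in role groups from top to bottom. Black marks the 8 genes with an unadjusted p under 0.05, all of which lie left of 0, and grey marks the others.

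Libraries that stand apart touch these differences. Each library summed to 20941242 to 22664217 normalized counts in KPC mice and 21932976 to 24449863 in sham mice. KPC mouse 1 had the lowest median correlation with the other libraries, 0.908 on the log2 scale, and sham mouse 5 the next lowest, 0.939, where the other 8 ranged from 0.950 to 0.959. Mitochondrially encoded transcripts held 15.7% of the TPM in KPC mouse 1 and 26.3 to 33.3% in the other 9 mice. Sham mouse 5 was the highest of all 10 mice in 30 of the 42 members, KPC mouse 1 was the lowest in 15 and KPC mouse 3 in 12. Without KPC mouse 1 and sham mouse 5 together, an alternative picked with the data in view, 4 of the 42 members lay lower at an unadjusted p under 0.05 and 0 higher. In that setting 14.5% of all genes tested had such a p in either direction, and the median over the members was -0.11. Skeletal muscle markers, defining genes of a tissue that is not fat, summed to 52.7, 50.2, 57.4, 60.9 and 189 TPM in KPC mice 1 to 5 and to 74.9, 44.8, 401, 1109 and 3291 TPM in sham mice 1 to 5. Of these 8 markers, 0 were at 0 TPM in all mice. Smooth muscle and pericyte markers summed to 373, 552, 341, 544 and 1218 TPM in KPC mice 1 to 5 and to 491, 724, 639, 1106 and 2884 TPM in sham mice 1 to 5. Sham mouse 5 was the highest in both marker lists, and the part of these cells in the matrix differences was not tested.

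**Figure D2:**
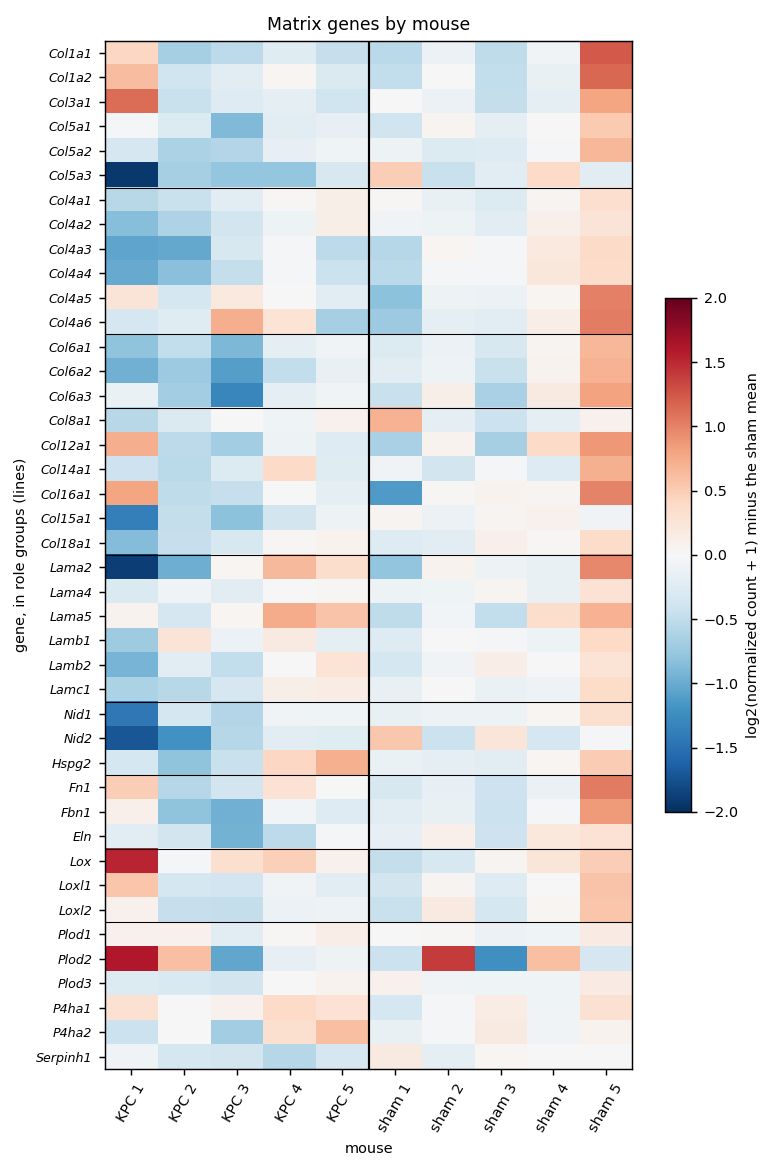
Each cell is the log2(normalized count + 1) of a gene in a mouse minus the mean of the 5 sham mice, for KPC mice 1 to 5 on the left and sham mice 1 to 5 on the right, with lines between role groups. Sham mouse 5 is the highest mouse in 30 of 42 rows, and KPC mouse 1 holds both high rows, such as Col3a1 and Lox, and the lowest row values in 15 members.

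The 42 genes together made up 0.364, 0.260, 0.254, 0.354 and 0.340% of the listed TPM in KPC mice 1 to 5 and 0.307, 0.340, 0.335, 0.378 and 0.547% in sham mice 1 to 5. On average over all mice, 40 genes stood above 1 TPM, 34 above 10 TPM and 10 above 100 TPM. Col3a1, Serpinh1, Col4a1, Col15a1 and Nid1 led the order of levels, and these 5 carried 46.8% of the members' TPM. Over all 10 mice Col3a1 averaged 605 TPM, Serpinh1 352 TPM and Col4a1 203 TPM. Col4a1, Col15a1 and Nid1 encode proteins of the basement membrane or of the zone next to it.

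The 4 members with the smallest unadjusted p were Col5a3, Col15a1, Col6a2 and Serpinh1, and the 250 bases upstream of their start sites are shown to give their sequence context, although none of the 4 passed over all genes and no result rests on these windows. The sequences are from RefSeq on GRCm38.p6 and run 5′ to 3′ on the strand of the gene, counted from the RefSeq start. Capitals mark the letters GGGCGG (GC box) and CCAAT, searched on both strands, so that CCGCCC and ATTGG count too. No annotated exon lies in these windows.
Col5a3 (chr9:20815068-20815317, - strand): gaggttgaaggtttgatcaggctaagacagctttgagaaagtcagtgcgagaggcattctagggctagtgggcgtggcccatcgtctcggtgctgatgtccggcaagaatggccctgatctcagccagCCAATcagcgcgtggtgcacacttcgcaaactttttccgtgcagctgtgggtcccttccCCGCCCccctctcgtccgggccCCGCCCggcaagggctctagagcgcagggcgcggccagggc
Col15a1 (chr4:47207762-47208011, + strand): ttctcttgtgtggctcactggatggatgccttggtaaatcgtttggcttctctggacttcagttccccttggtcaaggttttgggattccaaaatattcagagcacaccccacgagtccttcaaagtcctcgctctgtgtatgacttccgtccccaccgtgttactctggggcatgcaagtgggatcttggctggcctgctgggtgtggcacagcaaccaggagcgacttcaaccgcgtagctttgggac
Col6a2 (chr10:76623631-76623880, - strand): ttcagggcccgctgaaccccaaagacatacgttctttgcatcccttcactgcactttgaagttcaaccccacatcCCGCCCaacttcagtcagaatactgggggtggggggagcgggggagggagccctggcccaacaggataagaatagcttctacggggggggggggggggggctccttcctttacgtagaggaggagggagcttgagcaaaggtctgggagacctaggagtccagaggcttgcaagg
Serpinh1 (chr7:99353240-99353489, - strand): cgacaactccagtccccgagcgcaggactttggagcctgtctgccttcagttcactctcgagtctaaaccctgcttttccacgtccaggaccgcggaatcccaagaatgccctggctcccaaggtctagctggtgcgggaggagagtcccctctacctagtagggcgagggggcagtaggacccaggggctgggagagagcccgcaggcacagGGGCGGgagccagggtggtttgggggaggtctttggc
The Col5a3 window held 2 GC boxes and 1 CCAAT box, the Col6a2 and Serpinh1 windows 1 GC box each, and the Col15a1 window neither. None of the 4 held TATAAA. Promoters were found for 28 of the 42 members, in 30 windows, of which 20 (66.7%) held a GC box, 10 (33.3%) a CCAAT box and 2 (6.67%) TATAAA. Among all 32851 windows of the same length the shares were 32.7%, 33.8% and 12.4% in the same order. A match is a description of the letters and not of binding.

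Fibrillar collagens, the chains of the thick fibrils that give tissue its tensile strength, had 6 negative differences of 6, and 1 member had an unadjusted p under 0.05. For this and each later role group, the shares over all genes tested at such a p are 5.91% lower and 7.61% higher. Col5a3, a chain of collagen V, which governs how fibrils start and how wide they grow, had TPM values of 16.5, 40.3, 37.3, 42.2 and 54.3 in KPC mice 1 to 5 and of 84.4, 49.0, 61.3, 91.2 and 60.8 in sham mice 1 to 5. Every KPC mouse but mouse 5 lay below all sham mice, and KPC mouse 1 was the lowest of all. Its means were 38.1 ± 13.7 TPM in KPC mice and 69.3 ± 17.7 TPM in sham mice, a log2 difference of -0.89 ± 0.28 (95% interval -1.51 to -0.27), with a limma adjusted p of 0.252. Without KPC mouse 1 and sham mouse 5 the log2 difference of Col5a3 was -0.68, and without KPC mouse 1 alone -0.63.

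Col3a1, the chain of collagen III in soft fibrils and the most abundant gene of the set, had TPM values of 1172, 401, 455, 535 and 441 in KPC mice 1 to 5 and of 516, 525, 438, 523 and 1043 in sham mice 1 to 5. KPC mouse 1 and sham mouse 5 stood far above all others, and the remaining mice overlapped between 401 and 535 TPM. The log2 difference of Col3a1 was -0.04 ± 0.33 (95% interval -0.75 to 0.68). The other collagen V chains, Col5a1 and Col5a2, stood at 29.1 ± 6.19 TPM in KPC mice and 37.5 ± 10.9 TPM in sham mice and at 29.4 ± 6.27 TPM in KPC mice and 39.5 ± 13.1 TPM in sham mice. Their log2 differences were -0.32 ± 0.19 and -0.36 ± 0.18, with limma adjusted p-values of 0.486 and 0.406. Without sham mouse 5 the differences were -0.18 and -0.20, and without KPC mouse 3 that of Col5a1 was -0.17.

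Collagen I, the main fibril protein, is built of chains from Col1a1 and Col1a2. Col1a1 had TPM values of 138, 66.4, 72.2, 99.6 and 81.2 in KPC mice 1 to 5 and of 68.1, 101, 82.4, 109.9 and 269 in sham mice 1 to 5. Col1a2 had TPM values of 218, 109, 123, 166 and 125 in KPC mice 1 to 5 and of 96.4, 149, 114, 141 and 348 in sham mice 1 to 5. For both genes sham mouse 5 was the highest and KPC mouse 1 the next, and the groups overlapped. The log2 difference was -0.29 ± 0.32 for Col1a1 and -0.05 ± 0.31 for Col1a2, with limma adjusted p-values of 0.715 and 0.961. The balance of the chains did separate the groups. The TPM ratio of Col1a1 to Col1a2 was 0.633, 0.609, 0.588, 0.601 and 0.648 in KPC mice 1 to 5, against 0.706, 0.676, 0.723, 0.777 and 0.773 in sham mice 1 to 5. Every KPC mouse lay below every sham mouse, a ratio of 0.616 ± 0.0241 in KPC mice and 0.731 ± 0.0434 in sham mice. A ratio within a mouse does not depend on how the samples were scaled. Of the 13 ratios of partner genes computed, this was the only 1 whose groups did not overlap, and of all 861 pairs among the 42 members 2.32% did not overlap. It was picked out after all 13 were seen, and no test was made of it.

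**Figure D3:**
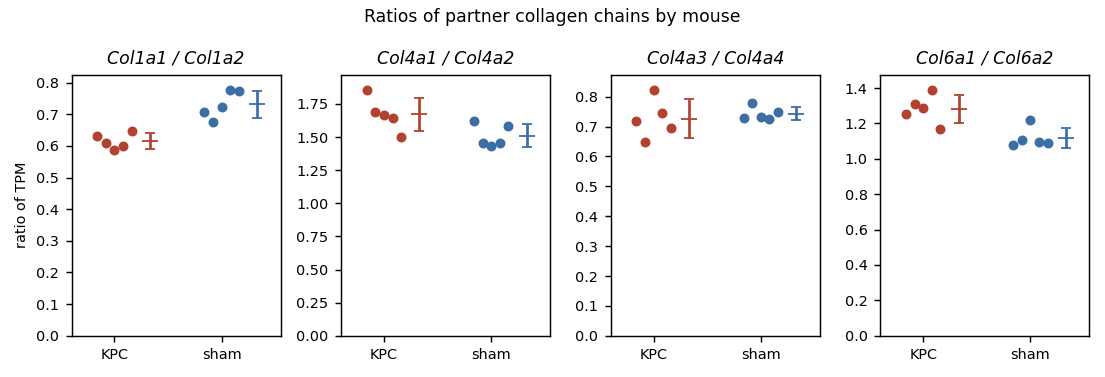
Ratio of TPM between partner collagen chains in each mouse, KPC on the left and sham on the right of each panel, with the mean and SD beside the points. The Col1a1 to Col1a2 ratio lies between 0.588 and 0.648 in KPC mice and between 0.676 and 0.777 in sham mice, while the groups overlap in the other 3 panels.

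Collagen IV, the network of the basement membrane, is made from 6 chains, and all 6 had negative differences with 1 at an unadjusted p under 0.05. Col4a1 and Col4a2 form the common network found around fat cells and vessels. Col4a1 had TPM values of 137, 150.4, 175, 234 and 236 in KPC mice 1 to 5 and of 197, 193, 189, 233 and 284 in sham mice 1 to 5. KPC mice 1, 2 and 3 lay below all sham mice and KPC mice 4 and 5 within the sham range, with a log2 difference of -0.22 ± 0.17 (95% interval -0.59 to 0.15) and a limma adjusted p of 0.591. Col4a2 had TPM values of 74.04, 89.2, 105, 142 and 157 in KPC mice 1 to 5 and of 122, 133, 132, 161 and 179 in sham mice 1 to 5. The same KPC mice lay below all sham mice, and the log2 difference was -0.36 ± 0.18 with a limma adjusted p of 0.406. The differences without KPC mouse 1 were -0.13 for Col4a1 and -0.24 for Col4a2. The ratio of Col4a1 to Col4a2 was 1.67 ± 0.126 in KPC mice and 1.51 ± 0.0867 in sham mice, and these ranges overlapped.

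The collagen IV genes lie in 3 head-to-head pairs. Col4a1 and Col4a2 on chromosome 8 overlap by 22 bases at their starts, Col4a4 and Col4a3 on chromosome 1 lie 71 bases apart, and Col4a6 and Col4a5 on chromosome X lie 1308 bases apart. The strand setting is not stated, and how reads over the 22 bases shared by the first pair were assigned is not known here. Col4a3 and Col4a4, chains of the kidney and lung network, were low. Col4a4 had TPM values of 0.200, 0.230, 0.296, 0.452 and 0.325 in KPC mice 1 to 5 and of 0.267, 0.422, 0.455, 0.533 and 0.590 in sham mice 1 to 5. The KPC mice lay low, but KPC mouse 4 reached the sham values and sham mouse 1 lay among the KPC values. Its log2 difference was -0.56 ± 0.24, and that of Col4a3 was -0.59 ± 0.28, with limma adjusted p-values of 0.342 and 0.382. Col4a3 stood at 0.220 ± 0.0797 TPM in KPC mice and 0.337 ± 0.0922 TPM in sham mice, and the ratio of Col4a3 to Col4a4 was 0.726 ± 0.0654 in KPC mice and 0.743 ± 0.0215 in sham mice. On log2(TPM + 1), where both genes stand below the pseudocount, the differences were -0.13 for Col4a3 and -0.16 for Col4a4. Col4a5 and Col4a6, the chains of smooth muscle and epithelial basement membranes, stood at 3.45 ± 0.579 TPM in KPC mice and 3.92 ± 2.09 TPM in sham mice and at 1.51 ± 0.605 TPM in KPC mice and 1.67 ± 0.898 TPM in sham mice, with log2 differences of -0.02 ± 0.28 and -0.05 ± 0.33.

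Collagen VI, the beaded microfibril next to the fat cell surface, had the lowest median among the collagen groups, -0.49 over 3 chains, and 2 of the 3 had an unadjusted p under 0.05. Col6a1 had TPM values of 92.6, 116, 87.6, 162 and 165 in KPC mice 1 to 5 and of 127, 157, 147, 185 and 282 in sham mice 1 to 5. Col6a2 had TPM values of 73.96, 88.5, 68.2, 116 and 141 in KPC mice 1 to 5 and of 117, 142, 120.3, 169 and 259 in sham mice 1 to 5. KPC mice 1, 2 and 3 lay below all sham mice in both genes, KPC mouse 4 also in Col6a2, and KPC mouse 5 lay within the sham range in both. The log2 difference was -0.49 ± 0.21 (95% interval -0.96 to -0.02) for Col6a1 and -0.68 ± 0.23 (95% interval -1.18 to -0.18) for Col6a2, with limma adjusted p-values of 0.354 and 0.268. Sham mouse 5 was the highest mouse for both, and without it the log2 differences were -0.32 and -0.51. Col6a3, the large chain whose end is released as the peptide endotrophin, stood at 47.6 ± 15.9 TPM in KPC mice and 69.5 ± 30.7 TPM in sham mice, with a log2 difference of -0.48 ± 0.30 and a limma adjusted p of 0.491. The difference was -0.28 without sham mouse 5, and -0.28 also without KPC mouse 3. The ratio of Col6a1 to Col6a2 was 1.25, 1.31, 1.29, 1.39 and 1.17 in KPC mice 1 to 5, against 1.08, 1.11, 1.22, 1.10 and 1.09 in sham mice 1 to 5. Sham mouse 3 lay above KPC mouse 5 in this ratio, so the groups overlapped by that pair.

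Among the other collagens, all 6 differences were negative and 1 had an unadjusted p under 0.05. Col15a1, a collagen that anchors the basement membrane to the fibrils around it, had TPM values of 77.5, 146, 114, 177 and 199.5 in KPC mice 1 to 5 and of 198, 193, 234, 235 and 212 in sham mice 1 to 5. KPC mice 1 to 4 lay below all sham mice, and KPC mouse 5 lay within the sham values. Its means were 143 ± 48.7 TPM in KPC mice and 214 ± 19.5 TPM in sham mice, a log2 difference of -0.63 ± 0.20 (95% interval -1.07 to -0.18), with a limma adjusted p of 0.255. Without KPC mouse 1 and sham mouse 5 the difference was -0.46. Col18a1, its close relative and the source of endostatin, stood at 30.1 ± 9.04 TPM in KPC mice and 37.6 ± 8.59 TPM in sham mice, with a log2 difference of -0.31 ± 0.18 and a limma adjusted p of 0.475, and -0.17 without KPC mouse 1. Col14a1 and Col16a1, which sit on fibril surfaces, had log2 differences of -0.22 ± 0.22 and -0.07 ± 0.35. Col12a1, a further fibril-associated chain, and Col8a1, a network collagen of vessels, stood below 5 TPM in every mouse, with log2 differences of -0.17 ± 0.34 and -0.17 ± 0.21.

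**Figure D4:**
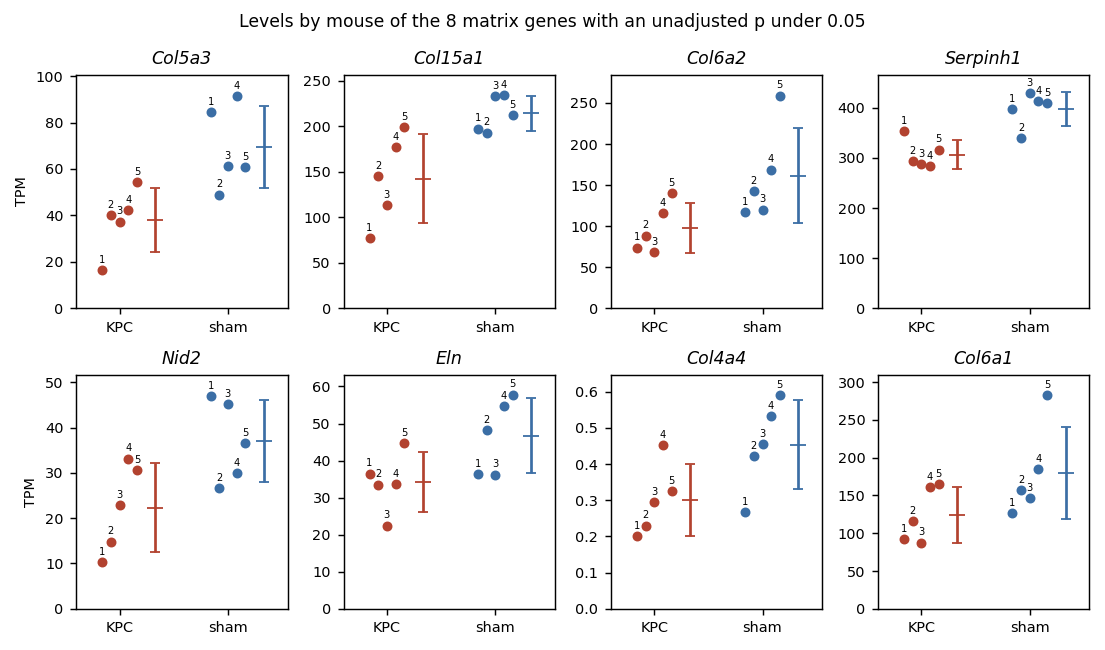
TPM in each mouse, numbered beside its point, for the 8 matrix genes with an unadjusted p under 0.05, KPC on the left and sham on the right of each panel, with the mean and SD beside the points. KPC means lie below sham means in all 8 panels, and in each panel at least 1 KPC mouse reaches the sham range.

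Laminins are cross-shaped proteins of an alpha, a beta and a gamma chain. Of the 6 chains measured, 5 had a negative and 1 a positive difference, and 0 had an unadjusted p under 0.05. Lama4, the alpha chain of vessel and fat cell basement membranes, had TPM values of 52.2, 61.4, 55.7, 72.4 and 69.6 in KPC mice 1 to 5 and of 56.4, 63.0, 74.7, 64.0 and 85.9 in sham mice 1 to 5. The groups overlapped, and the log2 difference of -0.11 ± 0.11 had a 95% interval of -0.34 to 0.13, among the narrowest of the set. Lamb1, Lamb2 and Lamc1, the common beta and gamma chains, had log2 differences of -0.12 ± 0.19, -0.27 ± 0.21 and -0.25 ± 0.17. Those of Lamb2 and Lamc1 were -0.11 and -0.16 without KPC mouse 1. Lama2, the muscle laminin chain, stood at 3.55 ± 2.21 TPM in KPC mice and 4.20 ± 2.12 TPM in sham mice with an interval of -1.38 to 0.65. Lama5, an alpha chain of vessels and epithelia, stood at 5.20 ± 1.87 TPM in KPC mice and 4.64 ± 1.89 TPM in sham mice, with a log2 difference of 0.22 ± 0.27.

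Nidogens tie the laminin sheet to collagen IV, and perlecan is the large heparan sulphate proteoglycan of the same layer. All 3 genes had negative differences, and the median was -0.50. Nid2 had TPM values of 10.2, 14.8, 22.9, 33.1 and 30.7 in KPC mice 1 to 5 and of 46.9, 26.6, 45.3, 29.9 and 36.6 in sham mice 1 to 5. KPC mice 1, 2 and 3 lay below all sham mice, whereas KPC mice 4 and 5 lay above sham mice 2 and 4. Its means were 22.4 ± 9.86 TPM in KPC mice and 37.1 ± 9.03 TPM in sham mice, a log2 difference of -0.79 ± 0.30 (95% interval -1.44 to -0.14), with a limma adjusted p of 0.299. Nid1 had TPM values of 67.4, 145, 122, 196 and 184 in KPC mice 1 to 5 and of 156, 179, 191, 208 and 251 in sham mice 1 to 5. KPC mouse 1 was the lowest and sham mouse 5 the highest, and the log2 difference of -0.50 ± 0.24 had a limma adjusted p of 0.384. Without both of these mice it was -0.20. Hspg2, which encodes perlecan, had TPM values of 52.0, 38.6, 49.2, 101 and 118 in KPC mice 1 to 5 and of 58.2, 61.5, 65.1, 75.8 and 105 in sham mice 1 to 5. KPC mice 1, 2 and 3 lay below all sham mice and KPC mice 4 and 5 lay above sham mice 1 to 4, and the log2 difference was -0.10 ± 0.27 (95% interval -0.70 to 0.50).

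Fibronectin is the protein on which new fibrils are laid, and fibrillin and elastin build elastic fibres. All 3 differences were negative. Eln, which encodes elastin, had TPM values of 36.5, 33.5, 22.4, 33.7 and 44.8 in KPC mice 1 to 5 and of 36.3, 48.3, 36.2, 54.8 and 57.8 in sham mice 1 to 5. KPC mice 2, 3 and 4 lay below all sham mice, and KPC mice 1 and 5 lay within the sham range. The log2 difference was -0.42 ± 0.18 (95% interval -0.82 to -0.03), with a limma adjusted p of 0.342. Fn1, the fibronectin gene, had TPM values of 113, 54.7, 62.8, 112 and 87.3 in KPC mice 1 to 5 and of 61.4, 75.5, 68.3, 81.6 and 184 in sham mice 1 to 5. Sham mouse 5 stood alone above 180 TPM and the other mice overlapped, with a log2 difference of -0.03 ± 0.29 (95% interval -0.66 to 0.60). Fbn1, fibrillin 1, stood at 23.4 ± 7.62 TPM in KPC mice and 31.9 ± 14.0 TPM in sham mice, with a log2 difference of -0.40 ± 0.27 and a limma adjusted p of 0.53. Without sham mouse 5 the difference was -0.18, and without KPC mouse 3 -0.25.

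Lysyl oxidases, the copper enzymes that crosslink collagen and elastin, held 1 of the 5 positive differences. Lox had TPM values of 52.1, 18.1, 22.8, 28.6 and 20.7 in KPC mice 1 to 5 and of 12.4, 15.3, 21.3, 23.7 and 28.2 in sham mice 1 to 5. KPC mouse 1 was above all others by far, and the remaining KPC mice overlapped with the sham mice. Its log2 difference was 0.48 ± 0.28 (95% interval -0.14 to 1.10), with a limma adjusted p of 0.475, and without KPC mouse 1 it was 0.22. Loxl1, the family member tied to elastic fibres and the most abundant of the 3, had TPM values of 64.3, 34.6, 33.8, 47.5 and 40.0 in KPC mice 1 to 5 and of 32.4, 47.8, 41.4, 48.6 and 71.9 in sham mice 1 to 5. KPC mouse 1 and sham mouse 5 were the highest of their groups, and the log2 difference was -0.10 ± 0.21. Loxl2, which also acts on collagen IV, stood at 16.9 ± 3.09 TPM in KPC mice and 20.6 ± 6.59 TPM in sham mice, with a log2 difference of -0.21 ± 0.19, and -0.07 without sham mouse 5. In every KPC mouse the ratio of Lox to Loxl1 lay above that of every sham mouse, at 0.516 to 0.810 in KPC mice and 0.320 to 0.514 in sham mice. This pair is 1 of the 20 of 861 that separated, and its lowest KPC and highest sham values lie next to each other.

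The enzymes and the chaperone that prepare collagen inside the cell were split, with 3 positive and 3 negative differences, a median of -0.01, and 1 gene at an unadjusted p under 0.05. Serpinh1, also called HSP47, the chaperone specific for folded procollagen, had TPM values of 353, 293, 288, 283 and 316 in KPC mice 1 to 5 and of 398, 339, 429, 413 and 409 in sham mice 1 to 5. KPC mice 2 to 5 lay below all sham mice, and KPC mouse 1 lay above sham mouse 2 alone. Its means were 307 ± 28.8 TPM in KPC mice and 398 ± 34.4 TPM in sham mice, a log2 difference of -0.34 ± 0.12 (95% interval -0.60 to -0.08), with a limma adjusted p of 0.277. The lowest adjusted p of any member under any alternative was that of Serpinh1, 0.0696, and its adjusted p ranged up to 0.511 over them.

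P4ha1, the main prolyl hydroxylase subunit, stood at 22.7 ± 3.51 TPM in KPC mice and 20.2 ± 4.46 TPM in sham mice, with a log2 difference of 0.22 ± 0.13 (95% interval -0.06 to 0.50), opposite in sign to Serpinh1. Without sham mouse 1 the difference of P4ha1 was 0.13, and without sham mouse 5 it was 0.30, where P4ha1 was the 1 member higher at an unadjusted p under 0.05. The ratio of P4ha1 to Serpinh1 was 0.0641 to 0.0971 in KPC mice and 0.0346 to 0.0623 in sham mice, with no overlap. P4ha1 was part of 8 of the 20 member pairs whose ratio separated the groups, more than any other gene. Its partners in them were Serpinh1, Col5a3, Col15a1, Col18a1, Nid1, Nid2, Col4a3 and Col4a4. The 20 pairs are 2.32% of all 861 and were picked out after all ratios were seen. As the 8 pairs share P4ha1 they are not separate results, and no test was made of them. For the pair with Serpinh1 the nearest ratios were 0.0641 in KPC mice and 0.0623 in sham mice. P4ha2, the second subunit, stood at 12.4 ± 4.95 TPM in KPC mice and 12.3 ± 1.79 TPM in sham mice, with a log2 difference of -0.04 ± 0.22. Plod1 and Plod3, lysyl hydroxylases, had log2 differences of 0.02 ± 0.09 and -0.18 ± 0.11. Plod2, the lysyl hydroxylase of the collagen telopeptides, had TPM values of 74.3, 37.6, 11.9, 24.7 and 24.39 in KPC mice 1 to 5 and of 17.2, 68.2, 11.8, 41.0 and 21.4 in sham mice 1 to 5. Its SD relative to its mean was the largest of the 42 members in both groups, and its log2 difference of 0.18 ± 0.54 had the widest interval of the set, -1.003 to 1.36.

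Other genes of matrix assembly were divided in direction. Across 6 lists of such genes, 96 were tested, 50 had a positive and 46 a negative difference, and 0 passed over all genes. At an unadjusted p under 0.05, 8 lay higher (8.33%) and 2 lower (2.08%), where 7.61% of all genes tested lay higher and 5.91% lower. Among basement membrane proteins outside the members, 12 were tested and 4 had a positive difference. Smoc2, a calcium-binding protein of this layer, averaged 50.6 ± 19.2 TPM in KPC mice and 23.0 ± 4.81 TPM in sham mice, with no overlap between the groups and a limma adjusted p of 0.0992. Lamc3, a laminin gamma chain, averaged 3.00 ± 1.76 TPM in KPC mice and 1.39 ± 0.200 TPM in sham mice, and Egflam, known as pikachurin, 4.99 ± 2.83 TPM in KPC mice and 7.79 ± 0.831 TPM in sham mice, with limma adjusted p-values of 0.274 and 0.336. Of 23 further folding and processing genes 10 were positive. P3h2, a prolyl hydroxylase acting on collagen IV, averaged 4.78 ± 1.21 TPM in KPC mice and 3.40 ± 0.954 TPM in sham mice, Tll1, a procollagen protease, 1.96 ± 0.489 TPM in KPC mice and 1.45 ± 0.155 TPM in sham mice, and P3h1, a further prolyl 3-hydroxylase, 11.9 ± 2.01 TPM in KPC mice and 14.2 ± 1.91 TPM in sham mice.

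Of 23 elastic fibre and matricellular genes, 16 had a positive difference. Ccn2 and Ccn1, secreted regulators of the matrix, averaged 21.8 ± 11.4 TPM in KPC mice and 11.1 ± 2.79 TPM in sham mice and 61.9 ± 30.5 TPM in KPC mice and 32.98 ± 9.34 TPM in sham mice, and Fbln1, fibulin 1, 96.3 ± 28.4 TPM in KPC mice and 75.2 ± 24.8 TPM in sham mice. Of 9 small leucine-rich proteoglycans 5 were positive. Podn averaged 32.0 ± 8.82 TPM in KPC mice and 22.4 ± 5.33 TPM in sham mice, Aspn 11.1 ± 4.29 TPM in KPC mice and 18.3 ± 9.30 TPM in sham mice and Bgn, biglycan, 152 ± 35.4 TPM in KPC mice and 114 ± 40.5 TPM in sham mice. Of 14 further collagen chains 8 were positive, and Col6a5, Col13a1 and Col23a1, those with the smallest p, stood below 3 TPM on average in each group. Of 15 receptors for collagen and laminin 7 were positive. Lair1, a collagen receptor of leukocytes, averaged 5.29 ± 5.39 TPM in KPC mice and 1.72 ± 0.811 TPM in sham mice, with 14.8 TPM in KPC mouse 1 and 1.77 to 3.50 TPM in the other 4 KPC mice. Cd44, a hyaluronan receptor, averaged 9.57 ± 4.15 TPM in KPC mice and 6.58 ± 1.38 TPM in sham mice, and Itga6, a laminin receptor chain, 61.6 ± 15.7 TPM in KPC mice and 77.8 ± 10.4 TPM in sham mice. The lowest limma adjusted p among these genes was that of Smoc2.

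Markers of the cells that make matrix were read beside the members. Adipocyte markers summed to 25386 to 31503 TPM in KPC mice and 27981 to 36647 TPM in sham mice, with 5 of 8 positive differences, 2 lower and 0 higher at an unadjusted p under 0.05. The 2 were Lpl, the lipoprotein lipase, at 2063 ± 857 TPM in KPC mice and 3453 ± 523 TPM in sham mice, and Plin1, the lipid droplet coat protein, at 95.4 ± 26.3 TPM in KPC mice and 132 ± 12.9 TPM in sham mice. The positive log2 differences were 0.02 for Adipoq, 0.05 for Cidec, 0.41 for Cidea, 0.02 for Pck1 and 0.01 for Fabp4. That of Lipe was -0.20. Fibroblast and progenitor markers summed to 689 to 1098 TPM in KPC mice and 594 to 837 TPM in sham mice. Of these 10 markers 5 were positive, the median was 0.02, and 2 lay higher and 1 lower at an unadjusted p under 0.05. The 2 higher were Ly6a and Icam1, and the lower was Cd55. Ly6a, at 501 ± 137 TPM in KPC mice and 302 ± 41.3 TPM in sham mice, was the largest part of the sum in every mouse. The sum therefore does not show whether the other markers of this list were higher in KPC mice. Endothelial markers summed to 477 to 642 TPM in KPC mice and 486 to 584 TPM in sham mice, with 6 of 10 positive and 1 higher at an unadjusted p under 0.05, and mesothelial markers to 107 to 214 TPM in KPC mice and 95.6 to 233 TPM in sham mice, with 4 of 8 positive. Smooth muscle and pericyte markers were negative in 10 of 10, with a median of -0.79, and skeletal muscle markers in 8 of 8, with a median of -2.90 and 3 at an unadjusted p under 0.05. Macrophage markers were positive in 8 of 8, 7 of them at an unadjusted p under 0.05, and summed to 1347 to 5547 TPM in KPC mice and 788 to 1287 TPM in sham mice, KPC mouse 1 being the highest, and red cell markers were positive in 6 of 6 and summed to 8549 to 40713 TPM in KPC mice and 4748 to 12869 TPM in sham mice. Over all genes tested, 7.61% lay higher and 5.91% lower at an unadjusted p under 0.05. None of these markers was at 0 TPM in all mice and none passed over all genes tested. The part of any of these cells in the matrix differences was not tested.

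**Figure D5:**
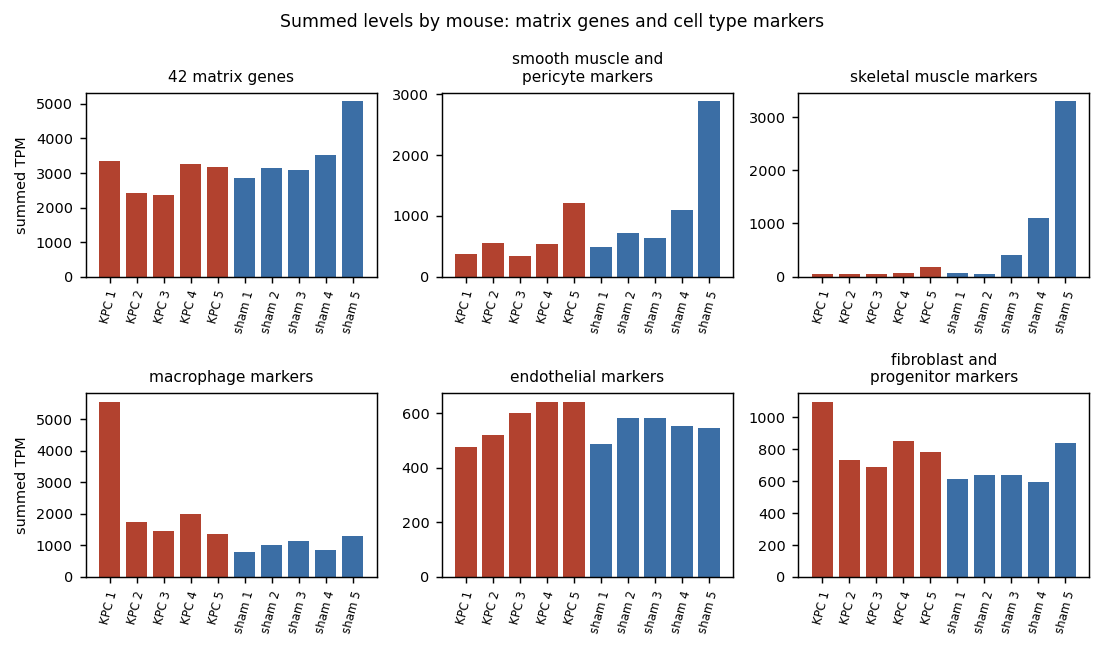
Summed TPM in each mouse of the 42 matrix genes and of 5 marker lists, KPC mice 1 to 5 on the left and sham mice 1 to 5 on the right of each panel. Sham mouse 5 is the highest for the matrix genes and for both muscle lists, and KPC mouse 1 for the macrophage and fibroblast sums. In the fibroblast sum of KPC mouse 1, Ly6a alone holds 737 of 1098 TPM. Of the markers in this list, Dpp4, Pi16, Cd34, Cd55, F3 and Clec11a are highest in sham mouse 5. Ly6a, Thy1 and Icam1 are highest in KPC mouse 1, and Pdgfra in KPC mouse 4.

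Titles carry a first number, 1, 2 or 4, that the labels do not explain and that both groups share. Within number 1 (2 KPC and 2 sham mice) the median log2 difference over the members was -0.23 with 27 of 42 negative, within number 2 (1 KPC and 2 sham mice) it was -0.34 with 33 negative, and within number 4 (2 KPC and 1 sham mouse) it was -0.45 with 38 negative. The 1 sham mouse of number 4 is sham mouse 5, which was the highest in 30 of the 42 members, so the value within number 4 rests on it. With this number as a block in limma, 20 of the 42 members had an unadjusted p under 0.05 in either direction, all of them lower. Of all genes tested, 14.6% had such a p in either direction, and again 0 members passed over all genes. In this fit too, sham mouse 5 is the only sham mouse of number 4.

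On GRCm38 (mm10) with the GENCODE vM21 annotation, the members named mouse by mouse with an unadjusted p under 0.05 are protein-coding genes at these places. Col5a3 (ENSMUSG00000004098, chr9:20770050-20815067, minus strand) lies apart from other members, as do Col15a1 (ENSMUSG00000028339, chr4:47208161-47313167, plus strand), Serpinh1 (ENSMUSG00000070436, chr7:99345376-99353239, minus strand), Nid2 (ENSMUSG00000021806, chr14:19751265-19811787, plus strand) and Eln (ENSMUSG00000029675, chr5:134702593-134747323, minus strand). Col6a2 (ENSMUSG00000020241, chr10:76595762-76623630, minus strand) and Col6a1 (ENSMUSG00000001119, chr10:76708792-76726168, minus strand) are neighbours on the same strand, 85161 bases apart. Col4a4 (ENSMUSG00000067158, chr1:82448423-82586849, minus strand) is read away from Col4a3. Col3a1 and Col5a2 on chromosome 1 are read towards each other, with 24614 bases between them, and had log2 differences of -0.04 and -0.36.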

How the data were processed

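Visceral fat RNA of 5 KPC and 5 sham mice was sequenced, and groups were taken from the disease state in the labels. The deposited normalized count signal was used for tests and the deposited TPM for levels; per the submitters' processing notes the authors used Salmon, DESeq, DESeq2 and mm10, with roles, versions and strandedness not given in the sources used here. Low normalized counts were not whole multiples of 1 step (31.1 to 47.3% of values up to 30 were, within 0.05 of a whole number), so no count test was run and read depth is unknown. Genes with a mean of at least 10 normalized counts (14203) were compared on log2(normalized count + 1) by limma (3.58.1, under R 4.3.3), letting the variance depend on the level, with Benjamini-Hochberg adjustment and a threshold of 0.05; the step was tested on simulated data. The 1 added before taking logs makes the log2 differences of low genes smaller. The median SE of a log2 difference was 0.172.

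The members and gene lists were chosen with earlier results of these data known. Members with an unadjusted p under 0.05 and the most abundant member of each of the 9 role groups are given mouse by mouse, with up to 3 genes of smallest p from each further list. Col1a1, Col1a2, Col4a2, Hspg2, Lox and Plod2 are also given by mouse and were chosen after their values were seen. Adipocyte and fibroblast markers were likewise named by gene after their values were seen. The labels number mice within each group without saying that they share a litter or day, so p-values measure only the spread between these samples. Promoters are from RefSeq (GRCm38.p6), coordinates from GENCODE vM21, to which all 42 gene IDs matched.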

Additional observations from a re-analysis of the deposited data

Results flagged for a closer look

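In 6 of 84 groups of 5 values (42 genes in 2 groups) 1 mouse stood apart, by a gap to the next mouse, divided by the whole range of the log2 values, above 0.71. Chance flags about 1 group in 20. In sham mouse 5 these were Col1a1 (gap share 0.733, 269 TPM, against 68.1 to 109.9 TPM in the other sham mice), Col5a2 (0.739, 62.3 TPM, against 31.0 to 38.6 TPM) and Fn1 (0.807, 184 TPM, against 61.4 to 81.6 TPM). In KPC mouse 1 they were Col3a1 (0.841, 1172 TPM, against 401 to 535 TPM in the other KPC mice), which was high, and Col5a3 (0.723, 16.5 TPM, against 37.3 to 54.3 TPM), which was low. In KPC mouse 3 it was Col5a1 (0.719, 18.6 TPM, against 28.4 to 33.01 TPM), which was low. All 6 are fibrillar collagens or fibronectin. As 3 of the 6 come from sham mouse 5 they are not separate results, and 6 of 84 is near the share that chance flags.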

How the results depend on the processing

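No member was called higher (0) or lower (0) under any alternative. The median log2 difference over the members stayed negative, between -0.31 and -0.13 with 1 mouse left out. The number of genes called over all genes was 8, and became 2 on TPM, 3 with no variance trend, 200 with sample weights and 2 to 71 with 1 mouse left out. Members with an unadjusted p under 0.05 numbered 8, where 13.5% of all genes tested had such a p. With 1 mouse left out they numbered 4 to 13, where 9.24 to 14.7% of all genes tested had such a p. Without sham mouse 5, 5 such members lay lower and 1 higher, the only setting with a member higher. Without KPC mouse 1 and sham mouse 5 together, chosen after seeing the data, 59 genes were called. There 4 members had such a p, as did 14.5% of all genes tested.

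The labels do not say whether the numbers in the descriptions pair the mice. Deviations of same-numbered mice from their group means correlated at 0.0680, 0.191, 0.00505, 0.0200 and 0.171. For KPC mice 2 and 5 the sham mouse of the same number had the highest correlation, and for KPC mice 1, 3 and 4 another sham mouse. These correlations cannot decide whether the mice were paired. With the description number as a replicate block, 4 genes were called over all genes. There 14 members had an unadjusted p under 0.05, as did 13.2% of all genes tested. With the first title number as a block, 4 genes were called and 20 members had such a p, as did 14.6% of all genes tested.

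Of the members, 18 changed sign under at least 1 alternative. Log2 differences became positive with sample weights for Col4a6 (0.025), Col8a1 (0.059), Lama2 (0.041), Lamb1 (0.018) and Fn1 (0.015), and negative for Plod2 (-0.27). With the same weights the log2 difference of Hspg2 was 0.0800 and the log2 difference of P4ha2 was 0.0699. Plod1 became negative on TPM (-0.0092) and with the title number block (-0.026). Without KPC mouse 1 and sham mouse 5, Col1a2 (0.07), Col4a5 (0.16), Col4a6 (0.28), Col14a1 (0.00897), Lama2 (0.25), Lama4 (0.0076), Lamb1 (0.13), Hspg2 (0.0904) and Fn1 (0.099) became positive and Plod2 negative (-0.27). The log2 difference of P4ha2 was then 0.0775. With 1 mouse left out, 16 members crossed 0, and their log2 differences ran over Col1a1 -0.47 to 0.011, Col1a2 -0.22 to 0.24, Col3a1 -0.33 to 0.16, Col4a5 -0.22 to 0.23, Col4a6 -0.24 to 0.21, Col8a1 -0.28 to 0.0061, Col12a1 -0.39 to 0.048, Col16a1 -0.36 to 0.17, Lama2 -0.62 to 0.013, Lamb1 -0.21 to 0.032, Hspg2 -0.30 to 0.079, Fn1 -0.16 to 0.23, Loxl1 -0.26 to 0.046, Plod1 -0.0045 to 0.083, Plod2 -0.18 to 0.53, P4ha2 -0.20 to 0.12. Those of Col14a1 and Lama4 ran over -0.37 to -0.042 and -0.14 to -0.036. The causes were not tested. Col4a3 was not tested at a mean of at least 50.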
